A study of Mus musculus with 10 samples.

Results

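Wild-type (wt) mouse embryonic stem cells grown in serum-2i were compared with the same wt cells grown in serum by the CG sites at which 5-carboxylcytosine (5caC) was listed. The members were the listed sites of these 2 groups, taken by their group name, and numbered 119438 of the 1183229 entries in the series (8685 in serum and 110753 in serum-2i). They came from 4 of the 10 samples, 2 technical replicates per group. The serum group had no inhibitor. The serum-2i group had CHIR99021 at 3 µM, which blocks the kinase GSK3, together with PD0325901 at 1 µM, which blocks MEK. Both groups, and the Tdg groups used beside them, grew without feeders on gelatin in serum medium with the cytokine LIF. The Tdg groups, labelled for the gene of thymine DNA glycosylase without the kind of alteration, were grown in the same 2 media. A control with all Tet genes knocked out belongs to the design and is not analysed here, so no background level stands beside the values.

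TET enzymes oxidise 5-methylcytosine step by step to 5-hydroxymethylcytosine, 5-formylcytosine and 5caC. Thymine DNA glycosylase removes 5-formylcytosine and 5caC, and base excision repair then restores an unmodified cytosine. 5caC thus marks cytosines on the way out of methylation. Inhibition of MEK and GSK3 holds embryonic stem cells close to the naive state, in which DNA methylation is low across the genome, whereas serum cultures are more methylated and mixed in state.

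Each site carried 1 value per group, the mean read coverage of 2 technical replicates. No difference could therefore be set against a spread between replicates, and no p-value is given. Shares and ratios carry exact 95% intervals (Clopper-Pearson), which cover counting error only: reads amplified by PCR are not independent molecules, and neighbouring sites can share reads. A site was listed from a coverage of 3 in serum and of 4 in serum-2i, and the sequencing depth is unknown. A site missing from a group is therefore unknown there, not 0.

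Listed sites can be shown at base level at gene starts, and 8 of these are printed from RefSeq (GRCm38.p6). Each run is the 250 bases before the start, 5′ to 3′ on the strand of the gene, with the CGs listed in either wt group in capitals. Hoxa3 (chr6:52213068-52213317, minus strand), Hoxb8 (chr11:96281655-96281904, plus strand), Axin2 (chr11:108920099-108920348, plus strand) and Prkar1b (chr5:139129753-139130002, minus strand) had sites in serum and none in serum-2i. Tbx1 (chr16:18590672-18590921, minus strand), Egfl7 (chr2:26583615-26583864, plus strand) and Dab2ip (chr2:35558208-35558457, plus strand) had sites in both media, and Otx2 (chr14:48667509-48667758, minus strand) had a site in serum-2i alone. The starts were chosen after their sites were seen and are not typical. Over all start windows 124 CGs were listed in serum and 344 in serum-2i.
Hoxa3: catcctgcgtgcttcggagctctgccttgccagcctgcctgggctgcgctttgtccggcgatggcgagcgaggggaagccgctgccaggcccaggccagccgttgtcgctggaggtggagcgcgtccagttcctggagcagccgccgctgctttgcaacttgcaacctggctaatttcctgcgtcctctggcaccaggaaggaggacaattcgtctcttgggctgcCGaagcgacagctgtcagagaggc
Hoxb8: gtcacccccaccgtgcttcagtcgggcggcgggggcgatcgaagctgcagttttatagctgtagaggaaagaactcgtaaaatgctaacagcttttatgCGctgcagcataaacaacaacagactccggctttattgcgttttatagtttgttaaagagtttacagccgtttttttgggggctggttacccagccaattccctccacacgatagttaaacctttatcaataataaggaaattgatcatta
Axin2: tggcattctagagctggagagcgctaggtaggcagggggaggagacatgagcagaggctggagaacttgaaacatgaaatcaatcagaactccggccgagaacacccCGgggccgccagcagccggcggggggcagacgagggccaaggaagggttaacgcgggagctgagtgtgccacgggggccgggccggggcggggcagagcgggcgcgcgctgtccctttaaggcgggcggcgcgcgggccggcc
Prkar1b: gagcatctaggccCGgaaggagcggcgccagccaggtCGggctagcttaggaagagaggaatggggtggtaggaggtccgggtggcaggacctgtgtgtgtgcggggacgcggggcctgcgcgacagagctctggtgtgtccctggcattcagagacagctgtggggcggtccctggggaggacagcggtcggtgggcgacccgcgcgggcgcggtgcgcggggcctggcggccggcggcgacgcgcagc
Tbx1: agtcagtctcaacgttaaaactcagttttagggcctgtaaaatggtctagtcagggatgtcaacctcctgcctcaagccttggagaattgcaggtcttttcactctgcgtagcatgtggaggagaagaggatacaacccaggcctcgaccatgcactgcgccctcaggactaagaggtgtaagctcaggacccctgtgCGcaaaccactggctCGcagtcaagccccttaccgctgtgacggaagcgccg
Egfl7: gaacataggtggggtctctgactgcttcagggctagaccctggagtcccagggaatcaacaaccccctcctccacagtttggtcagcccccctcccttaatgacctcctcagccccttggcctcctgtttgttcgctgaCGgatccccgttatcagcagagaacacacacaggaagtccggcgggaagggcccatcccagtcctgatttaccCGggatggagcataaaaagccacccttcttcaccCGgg
Dab2ip: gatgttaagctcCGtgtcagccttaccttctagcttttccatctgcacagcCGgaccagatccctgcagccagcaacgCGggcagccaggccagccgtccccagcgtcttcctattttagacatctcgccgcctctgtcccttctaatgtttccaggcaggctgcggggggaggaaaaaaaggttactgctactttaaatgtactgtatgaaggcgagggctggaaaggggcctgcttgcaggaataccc
Otx2: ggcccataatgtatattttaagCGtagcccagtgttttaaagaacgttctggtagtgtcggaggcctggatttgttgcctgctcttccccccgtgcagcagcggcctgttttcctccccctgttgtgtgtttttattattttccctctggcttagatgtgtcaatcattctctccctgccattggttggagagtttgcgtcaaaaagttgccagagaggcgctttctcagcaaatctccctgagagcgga

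The runs of Axin2, a feedback inhibitor of WNT signalling, and of Prkar1b, a regulatory subunit of protein kinase A, held 24 and 27 CGs. In serum, Axin2 had 1 listed CG 143 bases before its start at a coverage of 5. Prkar1b had 2 in serum, 213 and 237 bases before the start, at 4.5 and 4. The Prkar1b sites were listed again in serum Tdg cells, at coverages of 27 and 13.5, whereas the Axin2 site was not. Hoxa3, a homeobox factor of the anterior body axis, had 1 of 18 CGs listed in serum, 24 bases before the start (coverage 5), and the same base was listed in Tdg cells of both media (40.5 in serum and 13.5 in serum-2i). Hoxb8, another Hox factor, had 1 of 12 CGs listed, at 151 bases (coverage 5). This base was listed in Tdg cells of both media as well (9 in serum and 9.5 in serum-2i).

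Where both media had sites, they were not always on the same base. In Tbx1, a T-box factor of pharyngeal and heart development, the serum site lay 37 bases before the start (coverage 5) and the serum-2i site 52 bases before it (coverage 14). Both bases were listed in serum Tdg cells (74.5 and 38) and neither in serum-2i Tdg cells. In Egfl7, a secreted vascular factor, the CG 4 bases before the start was listed in both media, at 6 in serum and 10 in serum-2i. Among wt cells, the CG at 38 bases was listed in serum alone and that at 111 bases in serum-2i alone, both at a coverage of 4. In Tdg cells the CG at 38 bases was listed in both media (12.5 in serum and 20 in serum-2i) and that at 111 bases in neither. In Dab2ip, a Ras GTPase-activating protein, the CG at 238 bases was listed at 4.5 in serum and 9 in serum-2i, and those at 199 and 172 bases in serum-2i alone (8.5 and 9). Each of these CGs was listed in Tdg cells of both media, those at 199 and 172 bases at 19.5 and 14.5 in serum. In Otx2, a homeobox factor of the primed state and the forebrain, the CG at 228 bases had a coverage of 8.5 in serum-2i. This base was listed in neither Tdg group.

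Serum-2i listed more sites from every minimum coverage, and the ratio was larger at high than at low minimums. All listed sites gave a ratio of 12.8 (12.5 to 13.0). From the common minimum of 4 the ratio was 17.6 (6296 sites in serum), and from 8 it was 80.3 (74.1 to 87.2; 598 against 48042 sites). From 15 it was 144 (103 to 209), and from 20, with 9 sites in serum and 1254 in serum-2i, 139 (73.2 to 305). The serum sites were thus mostly of low coverage: 76.9% lay below 6, against 25.8% in serum-2i. With depth unknown, they are ratios of listed sites, not of 5caC content.

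**Figure D1:**
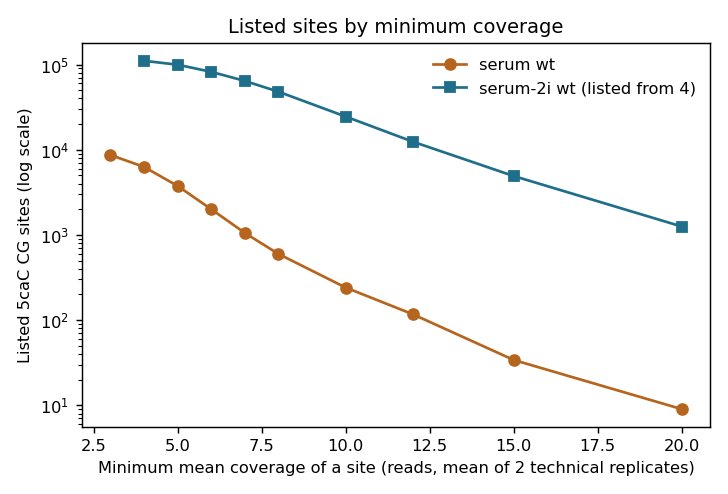
Number of listed 5caC CG sites (log scale) in serum wt and serum-2i wt cells from each minimum mean coverage (reads, mean of 2 technical replicates) upward. The serum line falls faster, from 8685 sites at a minimum of 3 to 9 at 20, while serum-2i falls from 110753 to 1254.

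The sites of the 2 media were mostly different positions. Only 993 were listed in both, which was 11.4% of serum sites (10.8 to 12.1) and 0.897% of serum-2i sites (0.842 to 0.954). Among these 993, coverage was higher in serum-2i at 867, equal at 34 and lower at 92, with a median of 4.5 in serum and 9 in serum-2i and a median log2 ratio of 0.89. The serum minimum was lower, and at the 732 shared sites with at least 4 in serum the median was 0.71, with 606 higher and 92 lower. At the shared site farthest toward serum-2i, chr11:3193056 in Sfi1, coverage was 5 in serum and 57 in serum-2i. At the one farthest toward serum, chr11:3147720 in the same gene, it was 24.5 and 7.

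Tdg cells, which share no sample with the wt groups, gave another listing of the same positions. Both Tdg groups were listed from a coverage of 6, with 374488 sites in serum and 689303 in serum-2i. The higher minimum and the unequal totals enter every recurrence share, so shares in the 2 Tdg groups are not directly comparable. A site in both wt groups was also listed in serum Tdg cells in 70.3% of cases and in serum-2i Tdg cells in 79.1%, and in neither in 12.1%. Sites in serum wt alone were listed in serum Tdg cells in 52.4% and in neither Tdg group in 38.5%. Sites in serum-2i wt alone were listed in serum-2i Tdg cells in 48.9%, in serum Tdg cells in 17.3% and in neither in 48.6%. Shared sites thus recurred in Tdg cells more often than those of 1 medium, and the intervals did not overlap (67.3 to 73.1% against 51.3 to 53.5% in serum Tdg cells). Median serum-2i coverage was 9 at shared sites and 7.5 at sites of serum-2i alone, and the part of coverage in this was not tested.

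Recurrence rose with coverage in both media at low coverages, and farther up in serum-2i, where more sites of high coverage were listed. The share of serum-2i sites listed again in serum-2i Tdg cells was 40.0% at a coverage of 4 to below 5, 52.4% at 8 to below 12, 65.2% at 12 to below 20 and 82.3% (80.1 to 84.4) from 20 upward. In serum it was 51.7% (49.7 to 53.8) at 3 to below 4 and 58.5% (55.8 to 61.0) at 6 to below 8. It was 57.4% (47.5 to 66.9) at 12 to below 20, and 6 of 9 sites from 20 upward. Between the classes of 4 to below 5 and 6 to below 8, the rise was alike. It went from 53.6% to 58.5% in serum and from 40.0% to 45.8% in serum-2i. Of the 9 serum sites with a coverage of at least 20, 3 were listed in no other group: chr13:100843284 (coverage 34), 1 in Ndufab1 (21.5), a mitochondrial complex I subunit, and 1 in Cdkl4 (21), a kinase. All 10 of the highest serum-2i sites were listed again in serum-2i Tdg cells.

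**Figure D2:**
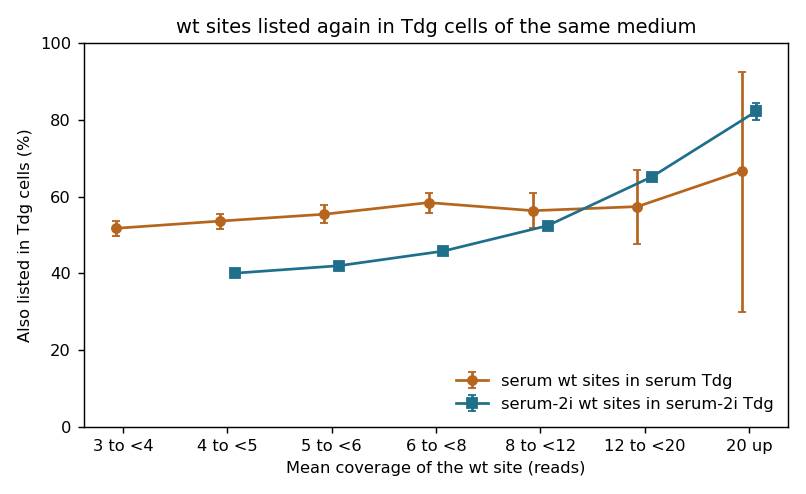
Share of wt sites also listed in Tdg cells of the same medium (%, exact 95% interval) by the mean coverage of the wt site. In serum-2i the share climbs from 40.0% to 82.3%, whereas in serum it stays between 51.7% and 58.5% up to a coverage of 20, above which only 9 sites remain.

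The share of serum sites was highest around gene starts, where the serum-2i share was low. This was measured on 21020 starts of 17274 protein-coding genes, without chromosome 18, and was looked for after the table had been seen. Within 1 kb of a start lay 728 of 8474 serum sites, or 8.59%, and 1861 of 107465 serum-2i sites, or 1.73%. The log2 ratio of the shares, serum-2i over serum, was -2.31 (-2.44 to -2.19). In bins of 500 bp, the serum share was 2.47% just after the start and 0.826% at the outermost bin before it. The serum-2i share was 0.449% just after the start and lowest at 500 to 1000 bp after it, 0.412% (0.375 to 0.452). It was 0.502% in the outermost bin before the start and 0.687% (0.638 to 0.738) in the outermost bin after it. From 5 to 50 kb the shares were alike (51.4% and 51.6%, log2 ratio 0.01, -0.04 to 0.05), and beyond 50 kb serum-2i had the larger one (23.2% against 37.4%, log2 ratio 0.69).

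**Figure D3:**
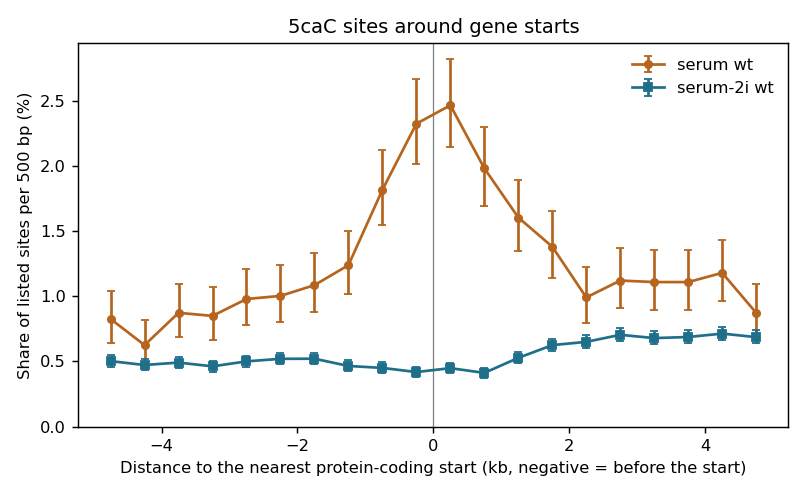
Share of listed sites (%, exact 95% interval) in 500 bp bins by distance (kb) to the nearest protein-coding start, negative before the start, in serum wt and serum-2i wt cells. The serum share peaks at 2.47% just after the start, while the serum-2i share is 0.449% there, 0.412% at 500 to 1000 bp and up to 0.714% farther after the start.

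The same order was seen in Tdg cells, where 7.84% of serum sites and 2.37% of serum-2i sites lay within 1 kb of a start (log2 ratio -1.72). The wt ratio was -2.52 (-2.74 to -2.29) from a common minimum of 6, with 190 serum and 1362 serum-2i sites. It was -2.06 (-2.25 to -1.87) over the sites that recurred in Tdg cells of the same medium. Of the serum sites within 1 kb of a start, 43.8% (40.2 to 47.5) recurred in serum Tdg cells, against 54.5% of all serum sites. In serum-2i these shares were 46.8% and 49.1%.

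At the start itself, which medium listed more sites differed with CG density. The start window ran from 250 bases before to 50 after the start, and 20082 such windows held 298715 CGs, of which 124 were listed in serum and 344 in serum-2i. In windows with up to 10 CGs, 46 CGs were listed in serum and 285 in serum-2i, with a 95% interval of the ratio from 4.53 to 8.65. In windows with over 15 CGs, a range typical of CpG islands, 49 were listed in serum and 18 in serum-2i, a ratio of 0.367 (0.201 to 0.642). In the windows with over 30 CGs serum had 13 listed CGs and serum-2i none of 103772 CGs, which allows up to 0.355 per 10000. The number of listed CGs was thus lower in serum-2i in dense windows, although serum-2i had 12.8 times as many sites in all.

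**Figure D4:**
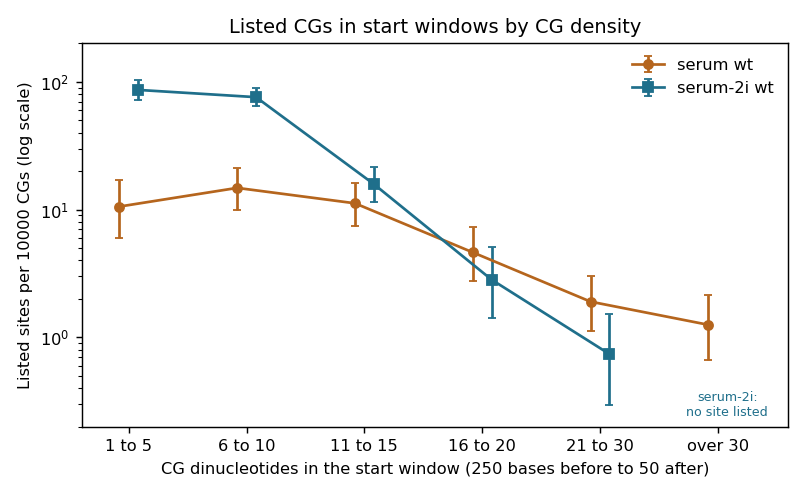
Listed sites per 10000 CGs (log scale, exact 95% interval) in start windows (250 bases before to 50 after the start), by the number of CGs in the window, in serum wt and serum-2i wt cells. Serum-2i lies above serum in windows with up to 10 CGs and below it in those with over 20, and has no listed site in those with over 30.

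The dense windows rest on few sites of low coverage. The median coverage of the 49 serum sites was 4.5, and 13 of them (26.5%, 14.9 to 41.1) recurred in serum Tdg cells, fewer than the 54.5% of all serum sites. Of the 18 serum-2i sites 4 recurred. From a common minimum of 6 there were 13 and 9 sites, and the log2 ratio of -0.53 (-1.94 to 0.81) no longer excluded no difference. In Tdg cells, which had more sites, the dense windows held 2980 listed CGs in serum and 461 in serum-2i, a ratio of 0.155.

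The bases beside the CG were counted in the same windows, over both strands, as the 4 letters NCGN. CCGG was the context of 24.4% (17.1 to 33.0) of 123 serum sites and 26.1% (21.5 to 31.1) of 341 serum-2i sites, against 11.3% of all CGs in the windows. GCGA made up 10.6% of serum and 3.81% of serum-2i sites (9.85% of all CGs). ACGA was found at none of the serum sites, with an upper bound of 2.95%, and at 4.99% of serum-2i sites (3.99% of all CGs). The windows of the 2 media differed in CG density, so these shares describe the listed sites.

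Short genes held a larger share of the sites in serum than in serum-2i, and long genes and positions far from genes a smaller one. Coding spans under 10 kb held 7.10% of serum and 2.85% of serum-2i sites (log2 ratio -1.32, -1.44 to -1.19). Spans over 100 kb held 14.4% and 24.98% (0.79, 0.71 to 0.87), and positions over 50 kb from any coding span 7.08% and 11.7% (0.73, 0.61 to 0.85). The ratios in Tdg cells were -1.29, 0.52 and 1.08. The total inside coding spans was close (58.6% and 61.2%, 0.06), as was that in long noncoding RNA spans outside them (6.90% and 7.11%, 0.04, -0.08 to 0.17). Chromosome 11, rich in genes, held 11.7% of serum and 8.60% of serum-2i sites, and X held 40 and 438 sites (log2 ratio -0.22, -0.69 to 0.29).

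Serum-2i, with more sites, also had more of them close together, but not at equal numbers. Another listed site lay within 1 kb of 14.2% of serum and 35.6% of serum-2i sites. With serum-2i restricted to its 9056 sites with a coverage of at least 13, close to the number in serum, the share was 6.57% (6.07 to 7.10), below that in serum. Within 5 kb the shares at these numbers were 29.0% in serum and 17.6% in serum-2i.

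Gene by gene, the share of a group's sites inside the gene span was compared in the 5424 genes with at least 5 sites over both wt groups. A gene was called lower or higher in serum-2i where the shares differed by at least 2-fold and the interval excluded no difference. By this rule 188 genes were lower (3.47%) and 17 higher (0.313%); among 4755 protein-coding genes, 166 were lower (3.49%) and 17 higher (0.358%). Intervals were not adjusted for the number of genes. Genes with fewer than 5 serum-2i sites were kept only through their serum sites, so a lower call among them is a description. The rule sees the directions unequally: a gene without a serum site needed 49 serum-2i sites to be called higher, while 2 serum sites with none in serum-2i would give an interval that excluded no difference. Of the kept genes, 3168 (58.4%) had no serum site, so the median gene had no finite ratio. Sites that recurred in Tdg cells alone gave 123 lower and 2 higher genes. The split of calls depended on what was taken as equal. Among the 2256 kept genes with sites in both groups the median log2 ratio was -1.09. With ratios centred on it, 72 genes were lower and 202 higher. This centre leaves out the 58.4% without a serum site and so leans toward serum by selection. By shares of summed coverage in place of sites, 966 were lower and 2883 higher. Coverage shares count every read as a separate draw. A gene without a serum site then needed far fewer than 49 serum-2i sites to be called higher. These numbers therefore do not show how the calls split.

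The called genes were ordered the same way in Tdg cells. They also differed in length, which the rule itself favours. A higher call without a serum site needed 49 serum-2i sites, which long spans reach more easily. The lower coding genes had a median of 4 serum and 5 serum-2i sites. The 166 lower coding genes had a median span of 30.7 kb, and 160 of them (96.4%) also had a lower share in serum-2i among Tdg cells, with a median log2 ratio of -1.43. The 17 higher genes had a median span of 394 kb, 16 had no serum site, and 16 were higher in Tdg cells (median 1.12). Among the 4572 genes between the calls, 40.6% were lower in Tdg cells.

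Sfi1 (chr11:3131850-3203347), a centrin-binding protein of the centrosome, held the most serum sites of any coding gene. It had 51 in serum and 89 in serum-2i, or 0.587% and 0.0804% of all sites (log2 ratio -2.87, -3.38 to -2.34). The counts in Tdg cells were 92 and 131 (-0.37). It held 20 of the 993 shared sites, 5 of the 10 highest serum sites and 3 of the 10 highest in serum-2i. The highest serum site, chr11:3146979, had a coverage of 70.5 and was not listed in serum-2i wt cells, though it stood at 149 and 144.5 in serum and serum-2i Tdg cells. The highest serum-2i site, chr11:3157838, had 100.5 against 12 in serum. Sfi1 has near-identical copies in the mouse genome, so how reads were assigned to it is uncertain. Without the gene, the log2 ratio of the shares within 1 kb of a start was -2.32.

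Gse1 (chr8:120228501-120581383), which encodes a subunit found with histone demethylases, came next with 36 sites in serum and the most of all coding genes in serum-2i, 146 (log2 ratio -1.65, -2.19 to -1.08). Nuclear factor I genes, transcription factors of development, were also lower: Nfic (chr10:81396191-81431919) had 13 and 8 sites (-4.37, -5.85 to -2.99). Nfix (chr8:84704712-84801238) had 13 and 28 (-2.57, -3.56 to -1.49), and in Tdg cells 346 and 122. The mono-ADP-ribosylhydrolase gene Macrod1 had 15 and 40 sites (-2.26), of which 10 and 14 lay in no other gene's span. Srcin1, a SRC kinase signalling inhibitor, had 11 and 18 (-2.96), Arhgap23, a GTPase-activating protein, 11 and 30 (-2.23), and Dlgap4, a synaptic scaffold protein, 11 and 37 (-1.92). Zmiz1, a transcriptional coactivator, had 10 and 44 (-1.54), and Nol4l 10 and 26 (-2.29). All 10 were called lower, but they were picked for their serum sites, which enter the ratio, so this count is a description. Centred on the median of genes with sites in both groups, Gse1, Arhgap23, Dlgap4, Nol4l and Zmiz1 lost the call. The other 5 kept it. From a common minimum of 6, Sfi1 and Nfic kept the call and the other 8 did not.

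Some genes had more serum than serum-2i sites outright. Those named here reached the minimum of 5 sites only through serum and were picked by this ratio. Their values are a description. Obsl1, a cytoskeletal adaptor, had 7 in serum and 3 in serum-2i (log2 ratio -4.90, -7.48 to -2.76). Fstl3, a follistatin-like activin antagonist, had 6 and 3 (-4.67), and Rtkn 5 and 2 (-4.99). Agap2, an Arf GTPase-activating protein, Hps5, a protein of lysosome-related organelle formation, and B3gnt3, a glycosyltransferase, had 4 and 1 each (-5.67, -11.29 to -2.34). In Tdg cells the counts were 82 and 45 for Obsl1, 24 and 7 for Fstl3, 70 and 26 for Rtkn, 52 and 14 for Agap2 and 38 and 21 for B3gnt3. Hps5 had 13 and 16 there.

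Beside Gse1 and Sfi1, the genes with the most serum-2i sites were long and mostly not called. Zfhx3, a zinc-finger homeobox factor, had 7 and 136 sites over 682 kb (log2 ratio 0.61, -0.47 to 1.95). Msi2, an RNA-binding protein, had 5 and 107 (0.75), Tenm3, a neuronal adhesion protein, 3 and 101 (1.40, lower bound -0.19), and Wwox, an oxidoreductase of a fragile site, 3 and 99 (1.37, lower bound -0.22). Cmip had 4 and 98, Nav2, a neuron navigator, 4 and 87, and Dst, a cytoskeletal linker, 6 and 85. Slc39a11, a zinc transporter, with 3 and 119, was called higher (1.64, 0.06 to 3.94), but not from the common minimum of 4. Centred on the median of genes with sites in both groups, the other 7 were called higher too. That centre leaves out genes without a serum site and leans toward serum by selection.

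The other 16 higher genes had no serum site at all. Smyd3 (chr1:178951960-179518053), a lysine methyltransferase, had 85 serum-2i sites, where an equal share would have given 6.67 serum sites. Its counts in Tdg cells were 22 in serum and 393 in serum-2i (log2 ratio 3.28). Ptprg, a receptor tyrosine phosphatase, had 80 sites, and Cdh13, a cadherin, 74. In Tdg cells these had 59 and 422 (1.96), and 45 and 450 (2.44). Arhgap26, a GTPase-activating protein, had 67, Dym 63, the forkhead factor Foxp1 59, and Fndc3b, Arl15 and the cadherin Cdh23 55 each. Grip1, a glutamate receptor scaffold, had 53. A serum site below its listing minimum would not be seen. From a common minimum of 6 no gene was called higher, but this is no check. There, 2006 serum and 82193 serum-2i sites remained. A gene without a serum site then needed more serum-2i sites than the 146 of Gse1, the most in any coding gene at any coverage.

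Over 1949 windows of 1 Mb, 94 were lower in serum-2i (4.82%) and 121 higher (6.21%). The lower windows held a median of 26 coding spans, the higher ones 8 and the rest 7. From a common minimum of 6 there were 54 lower and no higher windows. A higher call needed far more serum-2i sites there, so the lack of higher windows is no check.

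Among the 15 of 16 gene lists with a finite ratio, the Hox genes lay farthest from an equal share. These homeobox factors pattern the body axis and are held silent in pluripotent cells by Polycomb. The 39 genes held 40 sites in serum, 0.461% of all (0.329 to 0.627), and 37 in serum-2i, 0.0334% (0.0235 to 0.0460), a log2 ratio of -3.79 (-4.47 to -3.10). In Tdg cells they held 1669 and 436 (-2.82). Counted over the sites that recurred in Tdg cells, the wt numbers were 34 and 22 (-4.15), and from a common minimum of 6 they were 12 and 23 (-4.42).

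All 4 clusters had the same order. Hoxd held 18 serum and 8 serum-2i sites (log2 ratio -4.84), Hoxa 14 and 18 (-3.31), Hoxb 17 and 23 (-3.24) and Hoxc 6 and 12 (-2.67, -4.20 to -0.97). Mean coverage in the clusters ran from 4 to 4.85 in serum and from 7.63 to 8.58 in serum-2i, against 4.97 and 8.04 over all listed sites. All 4 kept members were called lower, against 3.47% of all kept genes: Hoxa3 with 8 and 8 sites, Hoxd3 with 8 and 5, Hoxb3 with 5 and 7 and Hoxd4 with 5 and 3. The spans overlap, and every Hoxd4 site lay in another span, so the genes do not count separately. Hoxd4 also reached the minimum of 5 sites only through its serum sites, so its call is a description. Hoxd10 had 4 serum sites and none in serum-2i, and 16 Hox genes had no wt site.

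Lineage regulators with bivalent promoters, which carry activating and repressive histone marks in stem cells, came second. The 63 genes held 43 and 118 sites (log2 ratio -2.22, -2.73 to -1.68), and 2997 and 1047 in Tdg cells (-2.40). Of 11 kept members 4 were lower, against 3.47% of all kept genes. They were the T-box factors Tbx5 (5 and 10 sites) and Tbx1 (3 and 5), the paired-box factor Pax2 (4 and 11) and the blood factor Gata2 (3 and 4). Gata2 reached the minimum of 5 sites only through its serum sites. Pax7, a muscle and neural crest factor, had 4 and 15 sites (-1.77) and Gata4, an endoderm and heart factor, 3 and 7 (-2.45), neither called. Centred on the median of genes with sites in both groups, Tbx5, Tbx1, Pax2 and Gata2 lost the call. All 4 Hox genes kept it. Meis2, a Hox cofactor, had none and 9. Among sites within 1 kb of a span end the list had 4 and 12, with an interval that reached no difference.

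Polycomb and trithorax genes, the writers and readers of those marks, held 23 and 160 sites (log2 ratio -0.87, -1.51 to -0.18; -0.84 in Tdg cells). Of 13 kept, 2 were lower, against 3.47% of all kept genes, the share to set beside the 1 or 2 calls in each list that follows as well. Cbx8, a Polycomb reader, had 5 and 2 sites in wt cells and 33 and 2 in Tdg cells, and the corepressor Bcor, on X, had 4 and 5, against 241 and 94 in Tdg cells. Cbx8 reached the minimum of 5 sites only through its serum sites, so its call is a description. Bcor lost the call from a common minimum of 4 and when centred. The histone demethylase Kdm2b had 3 and 27 sites (-0.50) and the methyltransferase Kmt2d 1 and 22 (0.79), neither called. The list's interval reached no difference from a common minimum of 4 (-0.40, -1.24 to 0.58) and without X (-0.65, -1.34 to 0.13).

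Neural markers held 16 and 107 sites (log2 ratio -0.93, -1.70 to -0.07). Of these the splicing factor Rbfox3 had 8 and 37 and was the 1 lower member of 5 kept. It lost the call when centred on the median of genes with sites in both groups. The list's ratio in Tdg cells was -0.10 (-0.26 to 0.06). Over sites that recurred in Tdg cells, the wt ratio of -0.77 (-1.85 to 0.51) did not exclude no difference.

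**Figure D5:**
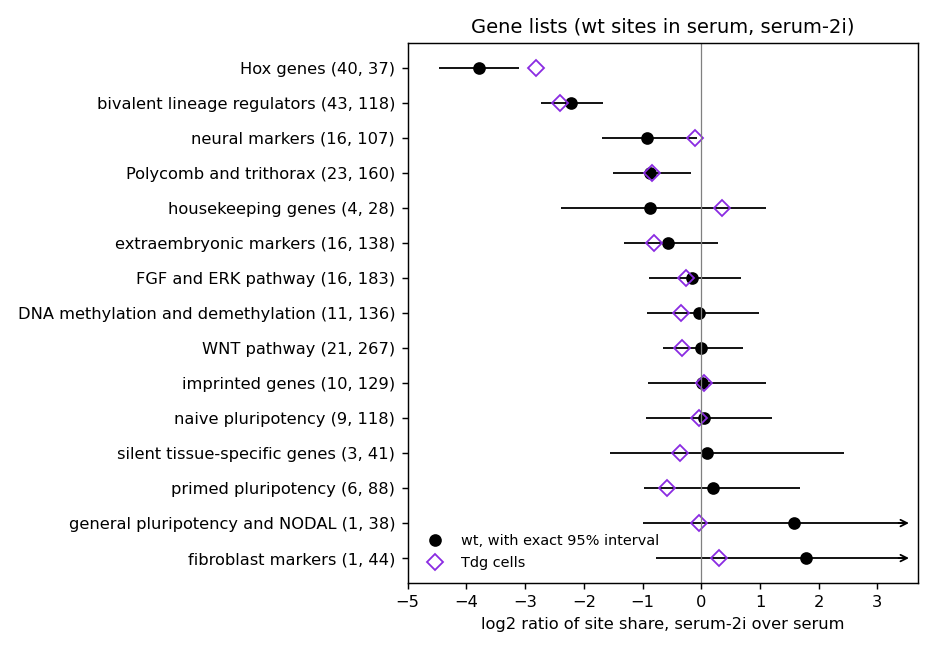
Log2 ratio of site shares, serum-2i over serum, for 15 gene lists in wt cells (filled points, exact 95% interval) and in Tdg cells (diamonds), with the wt site numbers in serum and serum-2i after each name; arrows mark intervals that run past the axis. Hox genes (-3.79) and bivalent lineage regulators (-2.22) lie farthest left, and the intervals of 11 lists include 0.

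No list of pluripotency genes had an interval that excluded no difference. The 21 naive genes held 9 and 118 sites (log2 ratio 0.04, -0.93 to 1.20), and none of 7 kept was called. Esrrb, an orphan nuclear receptor, had 4 and 24 sites (-1.09), Lifr, the LIF receptor, 1 and 27 (1.08), and Nr5a2, another nuclear receptor, none and 19. Stat3, the signal transducer of LIF, had none and 14. The 16 primed genes held 6 and 88 (0.20, -0.98 to 1.69), with none of 6 called, whereas their ratio in Tdg cells was -0.59 (-0.77 to -0.41). The 15 general pluripotency and NODAL genes held 1 and 38 (1.58, -0.99 to 6.92). In Tdg cells the naive list stood at -0.05 and the general list at -0.04. The width of these intervals, set by few serum sites, leaves room for differences of either sign.

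The pathway lists of both inhibitor targets also had wt intervals that included no difference. In Tdg cells the WNT list stood at -0.33 (-0.44 to -0.21) and the FGF and ERK list at -0.26 (-0.39 to -0.12). WNT pathway genes, downstream of the CHIR99021 target, held 21 and 267 sites (log2 ratio -0.00, -0.65 to 0.71). Tcf7l2 had 2 and 42 (0.72) and Tcf7l1 5 and 38 (-0.75), both factors that bind DNA with beta-catenin. The ligand Wnt3a, with 4 and 8 (-2.67), was the 1 lower gene of 17 kept. Wnt3a lost the call when centred on the median of genes with sites in both groups. The kinase Gsk3b itself had none and 17. FGF and ERK pathway genes, around the PD0325901 target, held 16 and 183 (-0.16, -0.90 to 0.68), with none of 12 called. The receptor Fgfr1 had 4 and 16 sites (-1.67), the inhibitor Spred2 2 and 22 (-0.21) and the receptor Fgfr2 none and 17.

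Genes of DNA methylation and its removal held 11 and 136 sites (log2 ratio -0.04, -0.93 to 0.99), with none of 9 kept called, and in Tdg cells the ratio was -0.35 (-0.52 to -0.18). The dioxygenase gene Tet1 had none and 19 sites, Tet2 2 and 8 and Tet3 2 and 15. The maintenance methyltransferase gene Dnmt1 had 1 and 22, the de novo genes Dnmt3a 1 and 25 and Dnmt3b 1 and 9, and the cofactor gene Uhrf1 none and 10.

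The remaining lists had few serum sites. Extraembryonic markers held 16 and 138 (log2 ratio -0.56, -1.31 to 0.28), with Gata2 the 1 lower of 10 kept. The 30 imprinted genes held 10 and 129 (0.02, -0.91 to 1.11), and the growth factor gene Igf2, with 4 and 3 (-4.09), was the 1 lower of 14. Igf2, like Gata2, reached the minimum of 5 sites only through its serum sites, so these calls are a description. Germline genes silenced by methylation had no serum site within their spans and 43 in serum-2i, so no ratio could be formed, and none of 3 kept was called. Housekeeping genes held 4 and 28 (-0.87, -2.38 to 1.11), silent tissue-specific genes 3 and 41 (0.10) and fibroblast markers 1 and 44 (1.79, -0.77 to 7.12), with no call in any of these. In Tdg cells the ratios were -0.80 (-0.94 to -0.66) for extraembryonic markers, 0.05 for imprinted genes and -0.44 (-0.74 to -0.15) for germline genes. They were 0.36 for housekeeping genes, -0.37 (-0.64 to -0.09) for silent tissue-specific genes and 0.30 for fibroblast markers. Fn1, fibronectin, held 26 of the fibroblast list's serum-2i sites. Since 5caC is not expression, the marker lists say where sites lay and not which cells were present.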

How the data were processed

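5caC was tagged at single CGs, enriched, primed at the tag and sequenced on an Ion Proton, per the labels' protocols. The authors' deposited table gives coverage, a signal in multiples of 0.5, by group and listed position. Per the submitters' processing notes the genome build was mm10; the site caller was not stated in these sources. Read totals per library are unknown, so nothing was scaled to depth. Shares were taken of each group's number of listed sites. Summed listed coverage (43172 in serum, 890158 in serum-2i) was the total only for the coverage shares.

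The members, the gene lists and the tests were chosen with earlier results of these data known. Positions were read as counted from 0, since 124 of 124 serum and 344 of 344 serum-2i sites in RefSeq start windows then fell on a CG, and are printed 1 higher. Gene spans and starts came from RefSeq (GRCm38.p6), all 419 list symbols being found, 1 by a synonym. A table of starts for chromosome 18 was not used here. Exons and introns were not used.

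Shares of listed sites were compared with Python 3.11.15 and SciPy 1.17.1, using an exact conditional interval of 95% and the call rule given above. No count model was run, since each group has 1 value. Genes named were the 10 with the most sites in either group, the 10 called coding genes per direction farthest from no difference, up to 6 members with the most sites and all called members of each list, and the genes of the 10 highest sites per group; those that matter are printed. Start profiles, CG-dense windows, letter contexts, shared sites and coverage classes were added after the table was seen, as was leaving out Sfi1.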

Additional observations from a re-analysis of the deposited data

Results flagged for a closer look

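8 called genes had a log2 ratio of site share, serum-2i over serum, of the opposite sign in Tdg cells, and the difference between the 2 genotypes was not tested. The genes lower in serum-2i among wt cells were Clptm1 (0.42 in Tdg cells), Crxos (0.48), the insulator protein gene Ctcf (0.26), the translation factor gene Eif4h (0.98), the growth hormone receptor gene Ghr (0.58), the noncoding Gm26901 (1.44) and Tnfsf11 (0.03), which encodes the ligand of a bone-cell receptor. Each had 3 to 5 serum sites. Sipa1l2, higher in serum-2i with 50 sites and none in serum, had -0.08 in Tdg cells. All 8 intervals in Tdg cells included 0.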

How the results depend on the processing

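No paired analysis was possible because the table gives 1 value per group, and leaving out a replicate was not run for the same reason. The share near gene starts, the shares in spans under 10, of 10 to 30 and over 100 kb, the Hox ratio and the coverage ratio at shared sites kept their side of no difference under every alternative. For the coverage ratio, keeping only serum-2i sites of highest coverage raises the value by selection, so that setting is no check. Ratios of listed sites were 17.6 (minimum 4), 41.0 (minimum 6), 1.04 (serum-2i sites of highest coverage, set by that choice), 12.4 (neighbours merged), 11.5 (sites recurring in Tdg cells) and 20.6 (summed coverage). Genes lower numbered 62 (minimum 6), 23 (highest coverage), 123 (recurring), 966 (coverage shares), 86 (10 sites or more), 334 (2 or more) and 72 (centred on the median of genes listed in both groups). Genes higher numbered 5 (minimum 4), 0 (minimum 6), 2 (recurring), 2883 (coverage shares), 202 (centred) and 7 (sites in 1 span). Windows higher numbered 65, 0, 80 (highest coverage), 35 (recurring) and 794 (coverage shares), and lower 54 (minimum 6), 57 (highest coverage) and 237 (coverage shares). At minimum 6 a higher call needed far more serum-2i sites, so the values of 0 for genes and windows are no check. The overlap was 10.8% (minimum 6), 2.22% (highest coverage) and 12.9% (recurring). Polycomb genes lost the call at minimum 4 (-0.40) and 6 (-1.27), at highest coverage (-0.26), without X (-0.65) and near span ends (-2.67), neural markers with neighbours merged (-0.86), recurring sites (-0.77) and flanks (-0.80), bivalent genes near span ends (-2.09) and dense windows at minimum 6 (-0.53). Lists excluding no difference, 4 in the report, numbered 10 by coverage shares and 2 near span ends. Counts by coverage shares treat every read as a separate draw, which makes their intervals too narrow. Neighbours within 1 kb reversed at highest coverage (-1.11). Over recurring sites the share inside spans (-0.032), that in spans of 30 to 100 kb (-0.051) and that outside spans (0.049) reversed, each with an interval that includes 0, and spans of 30 to 100 kb also lost the call at minimum 6 (0.12). The cause was not tested. Settings that left no serum site gave no ratio. Of the serum sites 76.9% had a coverage below 6, which limits every serum value.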
